A study of Mus musculus with 12 samples.

Results

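Smarca5 encodes SNF2H, an ATPase of the ISWI family. ISWI enzymes slide and space nucleosomes, and SNF2H works with a changing set of partner proteins in complexes that act in transcription, replication and DNA repair. Promoters rich in CpG, such as that of Smarca5, are as a rule free of DNA methylation in cells that use the gene. The methylation described here is that of every cytosine listed in any library within 5 kb on either side of the Smarca5 transcription start, 80 cytosines out of 2419319 autosomal cytosines listed in the series. The gene was chosen from measured values, its difference between the lines, so that difference is given as a description and not as a test.

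The data are 12 RRBS libraries from immortalized mouse embryonic fibroblast (iMEF) lines, 1 library for each line and day. RRBS sequences restriction fragments after bisulfite treatment, which converts cytosine but leaves methylated cytosine as it is. The experimental line was R26M2rtTA/+;TetOcre;Sdhcfl/fl, and the control line was R26M2rtTA/+;TetOcre;Sdhcfl/wt. Both lines carry the doxycycline-responsive Cre and both received doxycycline at 1 µg/mL, so the control line also rearranges its floxed Sdhc allele and keeps the wild-type allele. Libraries were made before doxycycline (day 0) and on days 5, 9, 12, 16 and 20. The control group holds 6 libraries, the experimental group the 5 libraries of days 5 to 20, and the experimental day 0 library stands by itself. Each genotype is a cell line of its own, so genotype and line cannot be told apart. The authors describe repeated sampling of the cultures over time, with cell pellets taken at passaging. No label says that the days of a line came from separate cultures. The days of a line are therefore serial samples, which the tests treat as independent libraries. The p-values measure only the spread between these libraries. Methylation is given as a beta value, the authors' percent of methylated calls divided by 100, from 0 to 1. No read counts accompany the percentages, so the depth is unknown and no interval is given for a single cytosine. The libraries listed between 932307 and 1716381 cytosines, and the fewest were in control day 12. Of the fibroblast markers, the 4 tested promoters had control means from 0.00272 for Fn1, a matrix protein, to 0.867 for Col1a2, a collagen chain. Between them, Vim, the fibroblast intermediate filament, was at 0.00376 and Pdgfra at 0.656. The 2 tested epithelial promoters, Cdh1 and Krt18, were at 0.335 and 0.506 in the control line. By limma, 0 of these 6 promoters were called between lines, against 2.01% of all 12239 promoters, and 0 had an unadjusted p under 0.05, against 18.9%. Counts this small do not set them apart from the rest, and RNA was not analysed here.

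Smarca5 lies on chromosome 8 of mm10 (GRCm38.p6), from 80699943 to 80739459, on the minus strand, so its start is at 80739459. The 80 cytosines ran from 80738422 to 80740817, and 25 of them were listed in all 12 libraries. Of those 25, 7 were at 0 in every library and the other 18 varied. A further 27 were missing only from control day 12, and 12 were listed in 1 library alone. Over the whole window, 49 cytosines were at 0 in each library that listed them. The window is thus mostly unmethylated in both lines, and the partial methylation of the control line is held by a few cytosines.

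The sequence of the promoter is shown because its CpGs and restriction sites set which cytosines RRBS can read. It covers the 250 bases before the start on the strand of the gene, chr8:80739460-80739709, from RefSeq, with each CpG in capitals.
Smarca5 promoter: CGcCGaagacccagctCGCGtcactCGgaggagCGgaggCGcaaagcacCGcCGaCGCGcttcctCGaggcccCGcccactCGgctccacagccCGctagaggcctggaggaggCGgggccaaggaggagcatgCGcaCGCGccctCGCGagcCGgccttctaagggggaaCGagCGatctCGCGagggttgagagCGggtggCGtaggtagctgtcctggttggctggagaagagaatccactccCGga
These 250 bases hold 29 CpGs. With the 50 bases after the start, the promoter entry holds 32 CpGs, more than 90.5% of the 32851 promoters of the same length, whose median is 7. Its G and C content is 67.7% against a median of 52.7%. CCGG, the site cut by MspI, the enzyme usual in RRBS, occurs 3 times, and 52.8% of all promoters hold at least 1 CCGG. The fragment between the CCGG sites next to the start carries 3 of the partly methylated cytosines. It is shown on the plus strand, the strand opposite to the gene's coding strand, at chr8:80739461-80739557, with the 3 listed cytosines in capitals.
Smarca5 start fragment: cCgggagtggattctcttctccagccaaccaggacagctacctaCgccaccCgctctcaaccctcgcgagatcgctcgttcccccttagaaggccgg
The 3 capitals lie at -3, -46 and -53 bp from the start, and the other CpGs of this fragment have no listed plus-strand cytosine.

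Partial methylation was taken as a mean beta from 0.2 to 0.8 over the 6 control libraries among cytosines listed in all 12 libraries. It was found at 13 cytosines. All 13 are on the plus strand, and they fall in only 2 of the CCGG-bounded fragments. The start fragment holds 3, which is every cytosine listed there. The other 10 are in a fragment of 81 bases, 80739100 to 80739180, which lies in the 5′ untranslated part of exon 1, just before the start codon at 80739096 (the UTR fragment in what follows). It has 11 listed plus-strand cytosines, and the remaining one, at 80739125, had a control mean of 0.158 and so fell just outside the threshold. The members nearest to the lower limit inside it were those at 80739512 with 0.321 and 80739138 with 0.35, and the highest, at 80739150, was 0.732. Outside the 13, no cytosine listed in at least 3 control libraries had a control mean above 0.158. A cytosine far upstream, at 80740817, was at 1 in control days 5 and 9 and was listed in no other library. It lies outside the stretch in which strands could be assigned.

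**Figure D1:**
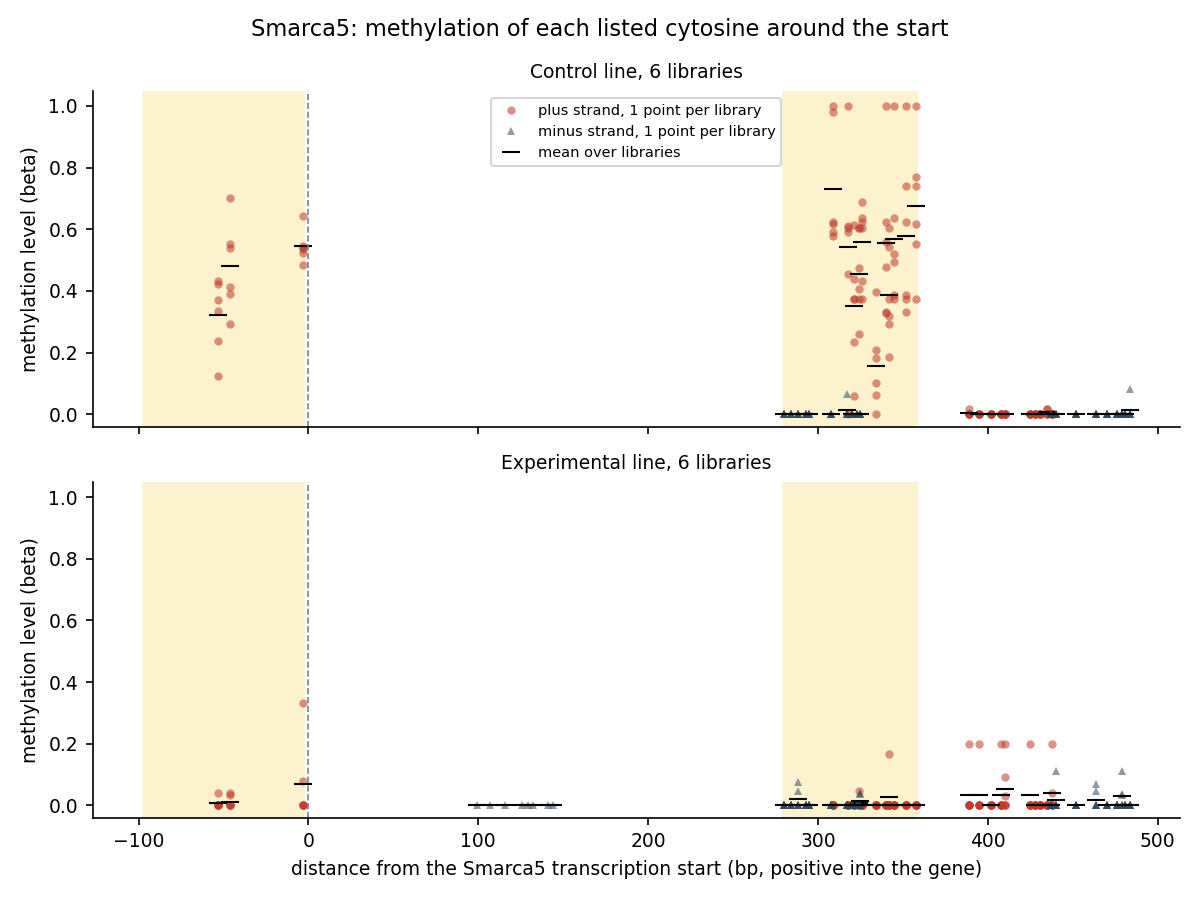
Beta value of each of the 51 cytosines whose strand is known against its distance from the Smarca5 start in bp, for the 6 control libraries (upper panel) and the 6 experimental libraries (lower panel), with 1 point per cytosine and library, circles for the plus strand, triangles for the minus strand, short bars for means over libraries and shaded bands for the start fragment and the UTR fragment. Among these 51, the raised control values are plus-strand points inside the bands, while minus-strand points stay at or below 0.0833 in the control line.

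Within the start fragment, the cytosine at 80739462 (-3 bp) was the steadiest. From day 0 to day 20 it read 0.534, 0.485, 0.642, 0.538, 0.524 and 0.545 in the control line, a mean of 0.545 ± 0.0522 (SD, n = 6). In the experimental line it was at 0 up to day 12, then 0.08 on day 16 and 0.333 on day 20, the highest experimental value at any of the 13. Every control value was still above every experimental value at this cytosine. The cytosine at 80739505 (-46 bp) had a control mean of 0.481 ± 0.145 (SD, n = 6) and ranged from 0.293 at day 0 to 0.7 at day 9. Its neighbour at 80739512 (-53 bp) had a control mean of 0.321 ± 0.119 (SD, n = 6) and was lowest at day 9, with 0.123. At neither did an experimental value exceed 0.0417.

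In the UTR fragment, the highest control mean was at 80739150 (309 bp into the gene). In day order its control values were 1, 0.625, 0.617, 0.981, 0.578 and 0.591, against 0 in all 6 experimental libraries. The cytosine at the other end of the methylated stretch, 80739101 (358 bp), read 0.375, 0.771, 0.617, 1, 0.739 and 0.552 on the same days, with a mean of 0.676 ± 0.213 (SD, n = 6), and was also at 0 throughout the experimental line. Between these ends the level dipped. At 80739125 (334 bp) the control values were 0, 0.208, 0.0617, 0.396, 0.181 and 0.102, and this was the lowest of the 14 plus-strand cytosines of the 2 fragments in 5 of the 6 control libraries, tied at 0 with 80739141 at day 0. The cytosine at 80739141 was the most variable, with a mean of 0.544 ± 0.323 (SD, n = 6), from 0 at day 0 to 1 at day 12. At control day 0 the plus-strand cytosines of this fragment read only 0, 0.375, 0.625 or 1. The depth behind such coarse values is unknown, so the extremes of single libraries are uncertain.

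Ordered by control mean, the 14 plus-strand cytosines ran from 0.158 to 0.732 with SDs from 0.0522 to 0.323. In 12 of the 13 steps between neighbours in this order, the step was smaller than the SD of either neighbour. The exception was the step of 0.162 from 80739125 to 80739512. All 14 were read in the same 6 libraries, and the SDs do not take this pairing into account. Differences within libraries were not tested, so the order is a description and not a ranking. Cytosines of a fragment are read by the same molecules and are not replicates. At control day 0, 6 of the 14 cytosines had the same beta, 0.375, and at control day 12, 5 of the 14 were at exactly 1. All 13 partly methylated cytosines were at 0 in the experimental day 0 library. Their means over experimental days 5 to 20 ran from 0 to 0.0827. At 12 of the 13, every control library was above every experimental library, day 0 included. This held for 0.789% of the 508351 cytosines that varied and were listed in all libraries, and since the gene was picked on this difference the count is a description. The exception was 80739141, which was at 0 in control day 0.

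**Figure D2:**
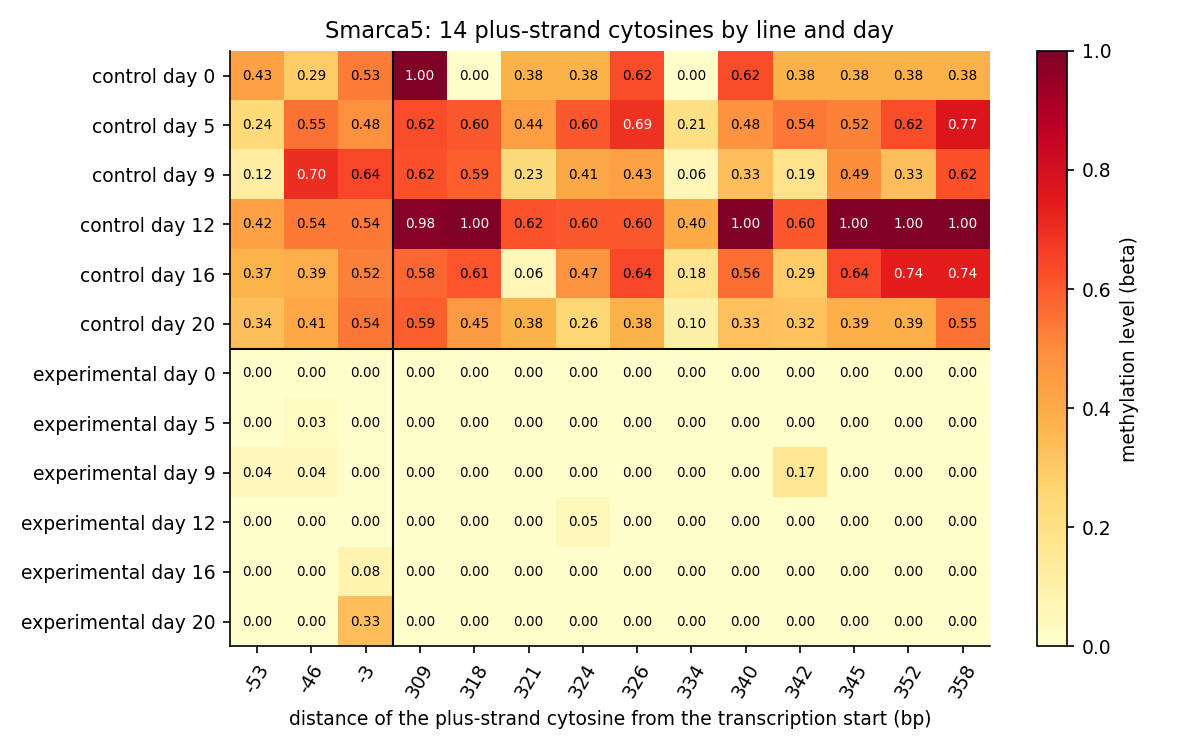
Beta values of the 14 plus-strand cytosines of the start fragment (3 columns on the left) and the UTR fragment (11 columns on the right), by distance from the start in bp, with 1 row per library and a colour scale from 0 to 1. The control rows hold values across the scale and the experimental rows are at or near 0, apart from 0.333 at -3 bp on day 20 and 0.167 at 342 bp on day 9.

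The methylation of the control line was on the plus strand only, as far as both strands were read. CpG methylation is as a rule copied to both strands after replication, so the 2 cytosines of a CpG usually read alike. In the UTR fragment, 5 CpGs had both cytosines listed in 5 control libraries (control day 12 listed no minus-strand cytosine of this fragment). At 80739150 the plus-strand mean over these 5 libraries was 0.682 and the minus-strand mean was 0. At 80739133 the pair read 0.552 and 0, at 80739135 0.424 and 0, and at 80739138 0.296 and 0. At 80739141 the plus-strand mean was 0.453 and the minus-strand mean 0.0133. The plus strand was higher in each of the 5 libraries at 4 of these CpGs and in 4 of 5 at 80739141. A sixth CpG, at 80739021, was at 0 on both strands in the 5 control libraries that listed both. It lies in the CCGG that bounds the next fragment into the gene, so its strands need not be read from the same fragment. Among the 19 minus-strand cytosines of the joined promoter and exon 1 that were listed in at least 3 control libraries, the highest control mean was 0.0139.

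Over 104475 autosomal CpGs with both cytosines listed in at least 5 control libraries, the median absolute difference between strands was 0.0222 and the 95th percentile was 0.237. The 5 Smarca5 CpGs differed by 0.296 to 0.682. Among the 20670 CpGs whose higher strand read 0.2 to 0.8, as it did in the 5 Smarca5 CpGs, 1630 (7.89%) differed by more than 0.3. A CpG with at least 0.3 on one strand and under 0.05 on the other occurred 453 times (0.434%), and 4 of the 6 Smarca5 CpGs were of this kind. These 4 lie in the UTR fragment, share reads and amount to 1 observation. The gene was chosen on its difference between lines, so their number is a description. Of the 332 CpGs of this kind that were also read in at least 4 experimental libraries of days 5 to 20, 35 had a mean under 0.05 on both strands there.

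**Figure D3:**
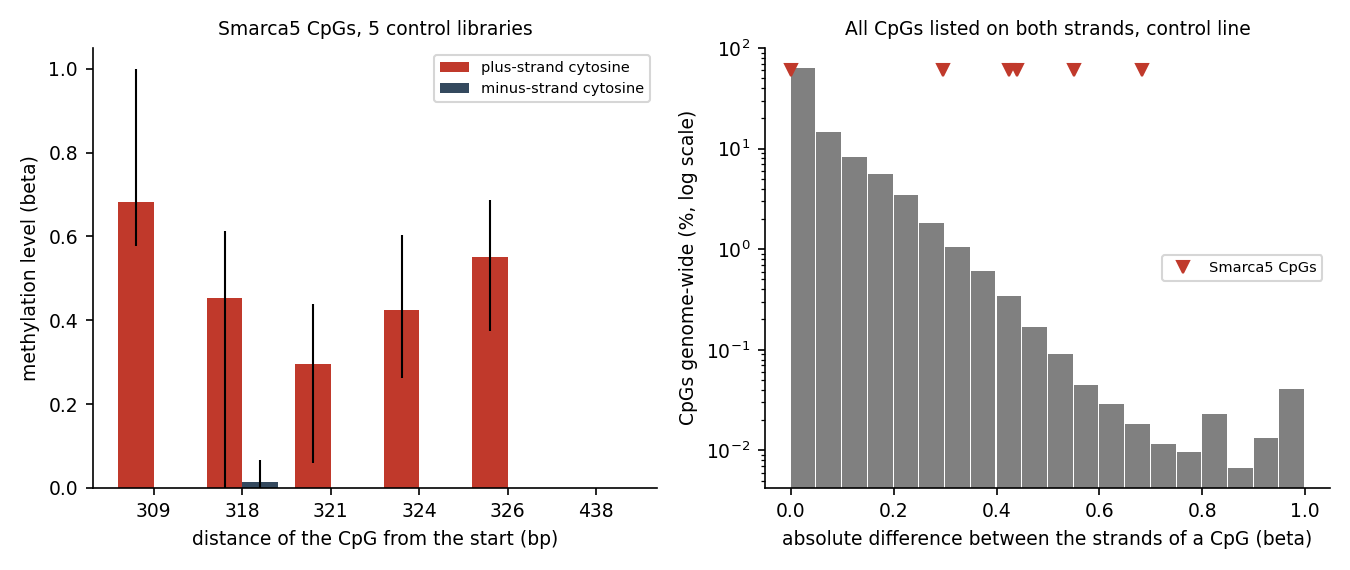
Left, mean beta of the plus-strand and minus-strand cytosine of each Smarca5 CpG read on both strands, against distance from the start in bp, with bars for the mean over 5 control libraries and lines for their range. Right, the percentage of 104475 CpGs (log scale) in each bin of the absolute difference between strands, with triangles for the 6 Smarca5 CpGs, 5 of which lie at 0.296 to 0.682, beyond the 95th percentile of 0.237. These 5 are in the UTR fragment and share reads, so they are not replicates.

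The partly methylated fragments have near copies elsewhere in the genome, so the reads assigned to them are uncertain. A search of the earlier build NCBIM37 (mm9), the genome used here for sequence matches, found each fragment once on chromosome 8 and 6 further times on chromosome 4, where a transcribed pseudogene, Smarca5-ps, is annotated. The chromosome 4 copies of the UTR fragment were 92.2% to 97.5% identical over the aligned bases, and those of the start fragment 94.7% to 99%. The listed cytosines of both fragments lay within 52 bases of the fragment end where reads of that strand begin. Over these 52 bases, with C read as T as in a fully converted plus-strand read, 5 of the 6 copies differed from the UTR fragment by 1 base, and 3 of the 6 copies differed from the start fragment by 1 base. No copy was identical over this stretch for either. For minus-strand reads of the start fragment, 3 of the 6 copies were identical after conversion, and no minus-strand cytosine of this fragment was listed. For minus-strand reads of the UTR fragment, which were unmethylated, 2 copies differed by 1 base and the others by more. The fragment next to the UTR fragment, 80739020 to 80739103, also has 6 copies on chromosome 4, of which 1 differed by 1 base for plus-strand reads, and its 10 plus-strand cytosines had a control mean of 0.00108. The copies were not located in mm10, the build of the files, since its genome was not used here.

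Smarca5-ps itself, chr4:145464210-145467961 in mm10, was methylated in both lines. Of 33 cytosines listed there, between 18 and 33 were listed per library, and control day 12 listed none. Their mean beta was 0.361 to 0.517 in the other 5 control libraries and 0.376 to 0.841 in the 6 experimental libraries. The cytosines listed in the pseudogene were not matched to those of the start fragment or the UTR fragment. Whether any copy of these fragments lies in Smarca5-ps was not tested, so its means do not show how the copies were methylated. The part that reads from copies have in the Smarca5 values was not tested.

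**Figure D4:**
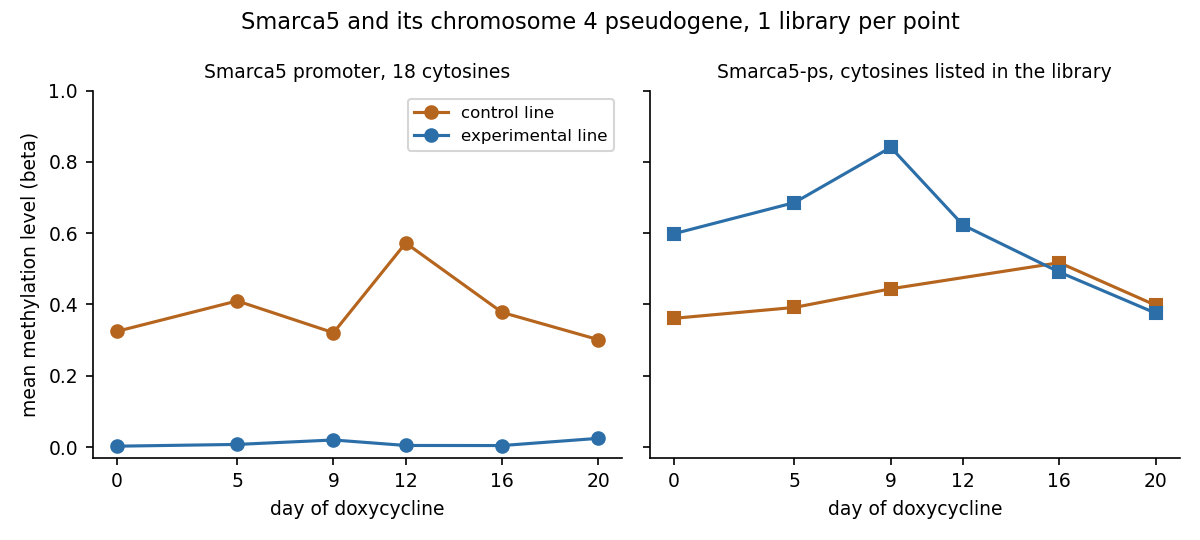
Mean beta of the 18 Smarca5 promoter cytosines (left) and of the cytosines listed in Smarca5-ps on chromosome 4 (right) by day of doxycycline, with 1 point per library, and no control day 12 point for the pseudogene. The lines are apart at Smarca5, and the pseudogene reads 0.361 or more in every library shown. The panels are unlike measures. The left one averages only varying cytosines listed in all libraries, and the right one every cytosine listed in a library. The cytosines of the panels were not matched to each other. Over all promoter cytosines listed in a library, the Smarca5 control level was 0.203.

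Averaged over the promoter (from 1500 bp before to 500 bp after the start), the 18 varying cytosines gave control values of 0.325, 0.41, 0.321, 0.572, 0.378 and 0.301 in day order, a mean of 0.385 ± 0.101 (SD, n = 6). The experimental line read 0.00265 at day 0 and then 0.0076, 0.0201, 0.00466, 0.00444 and 0.0247 on days 5 to 20, a mean of 0.0123 ± 0.00943 (SD, n = 5). The lines did not overlap on any day, and the difference was there before doxycycline. The start fragment was steadier over the control days, at 0.449 ± 0.0356 (SD, n = 6), than the plus strand of the UTR fragment, at 0.506 ± 0.16 (SD, n = 6). Control day 12, the library with the fewest cytosines, was the highest in both, with 0.5 and 0.8. In the experimental line (days 5 to 20) the start fragment averaged 0.0353 ± 0.0439 (SD, n = 5), highest at day 20 with 0.111, and the plus strand of the UTR fragment 0.00386 ± 0.00656 (SD, n = 5).

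**Figure D5:**
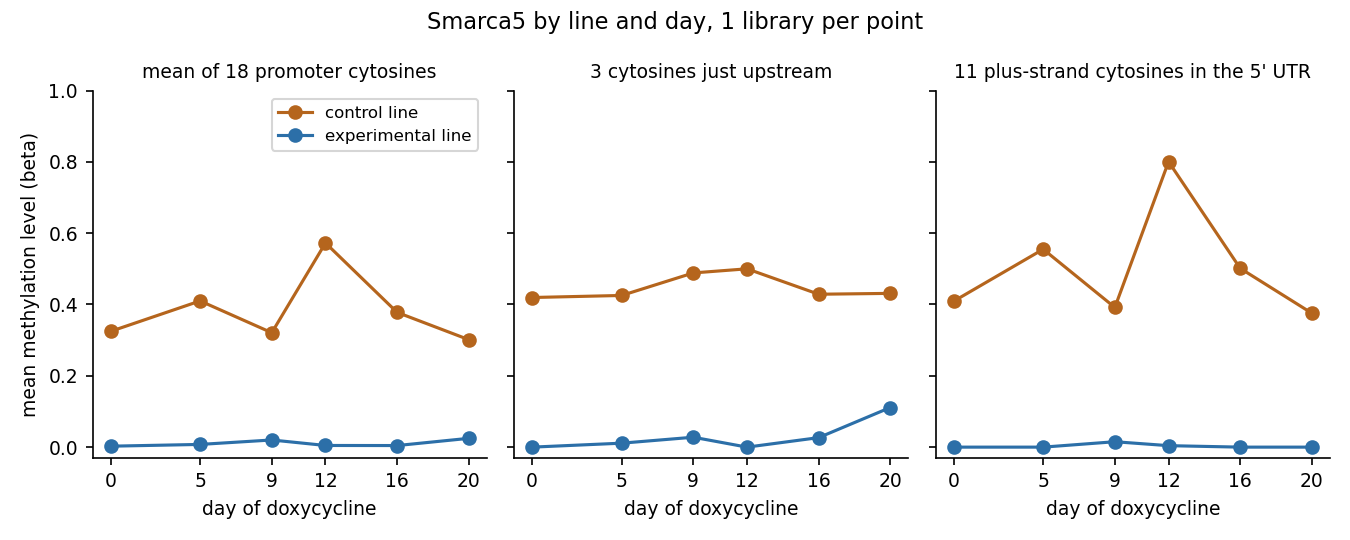
Mean beta by day of doxycycline for the 18 promoter cytosines, the 3 cytosines of the start fragment and the 11 plus-strand cytosines of the UTR fragment, with 1 library per point. The control line stays at 0.301 or above in each panel, and the experimental line reaches no more than 0.111.

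Whether the level moved with the days of doxycycline was tested with limma on M-values, log2 of the methylated over the unmethylated share with an offset of 0.01, across 12239 promoters. In the control line the Smarca5 slope was 0.00028 per day (SE 0.0382, adjusted p = 1), and without 1 library it ran from -0.0314 (without day 0) to 0.0387 (without day 20). In the experimental line it was 0.0436 per day (SE 0.0372, adjusted p = 0.928). The slopes differed by 0.0433 per day (SE 0.0561, adjusted p = 0.998). Without experimental day 20 the experimental slope was 0.00898 and the difference 0.0087, and the difference was 0.00484 without control day 20 and 0.075 without control day 0. The experimental day 0 library differed from the experimental days 5 to 20 by an estimate of -0.73 (SE 0.685, adjusted p = 1). This comparison has 1 library on one side, which is assumed to vary like the libraries of the other groups, so its SE and p rest on their spread. None of these passed the threshold of 0.05. Each of these 4 tests called 0 of the 12239 promoters (0%), with 659, 706, 617 and 290 promoters at an unadjusted p under 0.05. Each slope rests on 6 libraries, and a slope that misses the threshold does not show a constant level.

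Between the lines, limma called 246 of 12239 promoters (2.01%), and 2310 (18.9%) had an unadjusted p under 0.05. Of the 246, 71 (0.58% of all tested) were lower in the experimental line. Smarca5, which was chosen on this contrast, had an M-value difference of -4.90 (SE 0.379) for experimental minus control. Among single cytosines, 3124 of 508351 (0.615%) were called. With the day as a block these counts were 20 and 0, in a fit that also leaves out control day 0. Without control day 0 and with no block, 207 promoters were called. With 1 library left out the promoters called ran from 114 to 252. A control mean from 0.2 to 0.8 was common among promoters, at 2396 of 12239 (19.6%), but only 6 of these had an experimental mean under 0.05. Besides Smarca5 they were Zmym6, Tctn2, Cdv3, Gm51701 and Sar1b. The reverse, 0.2 to 0.8 in the experimental line and under 0.05 in the control line, was met by 18 promoters.

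Genes of ISWI complexes had low promoter methylation in both lines. Of the 12 genes listed for ISWI complexes, 8 had a tested promoter, and limma called 0 higher and 0 lower between lines, against 2.01% of all promoters, with 2 at an unadjusted p under 0.05, against 18.9% of all promoters. With 8 promoters, 0 called is near the background and is not a result about the list. Their control means ran from 0.00193 to 0.108, with a median of 0.00766. Over all promoters the median control mean was 0.0408, so low levels are common. Their median difference, experimental minus control, was 0.00932 against 0.00575 over all promoters. Baz1b, the partner in the WICH complex, read 0.00212 ± 0.0044 (SD, n = 6) in the control line and 0.0107 ± 0.00674 (SD, n = 5) in the experimental line. Rsf1, the partner in RSF, read 0.00396 and 0.0187, and Bptf, the large subunit of NURF, 0.00193 and 0.012. Baz2a, the partner in NoRC, had the highest levels of the list, 0.108 ± 0.0373 (SD, n = 6) and 0.122 ± 0.0181 (SD, n = 5). Cecr2, the partner in CERF, read 0.0427 and 0.0465, Baz2b 0.00436 and 0.0158, the histone chaperone Rbbp4 0.0201 and 0.0117, and the histone-fold subunit Chrac1 0.011 and 0.00513. Smarca1, the second ISWI ATPase, was among the 4 not tested, with Baz1a, Rbbp7 and Pole3. Of 26 other SNF2-family ATPases, 13 had a tested promoter and limma called 0, with 3 at an unadjusted p under 0.05, again near the shares of 2.01% and 18.9% over all promoters. Their control means ran from 0.00307 for Smarca2, an ATPase of the SWI/SNF complex, to 0.0708 for Chd1, and the largest difference, 0.0501 higher in the experimental line, was at Smarcal1, an annealing helicase that acts at stalled replication forks.

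The neighbours of Smarca5 on chromosome 8 are described by their values. Of 13 other genes with a start within 500 kb, 4 had a tested promoter, and limma called 0, with 0 at an unadjusted p under 0.05. Against 2.01% and 18.9% of all promoters, 4 promoters are too few to set the neighbours apart. Frem3, which encodes an extracellular matrix protein and starts 128420 bp away, read 0.123 ± 0.146 (SD, n = 6) in the control line and 0.109 ± 0.0907 (SD, n = 5) in the experimental line. Gab1, a docking protein of receptor tyrosine kinase signalling at 141060 bp, read 0.0131 and 0.0335. Usp38, a deubiquitinase at 275554 bp, read 0.0294 and 0.0157. The noncoding RNA gene 4930505O20Rik at 224978 bp read 0.532 and 0.564. Each of these 4 differences was smaller than the larger SD of the 2 groups.

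The promoters most like Smarca5 were taken as those with the highest Pearson correlation of beta over the 12 libraries, among 2390 promoters with at least 5 cytosines and a range of at least 0.2. They were Cdv3 (r = 0.979), Gm51701 (r = 0.949), LOC115486434 (r = 0.94), Sema6b (r = 0.928) and Gga3 (r = 0.924). The libraries fall into the 2 lines, so these values describe a shared difference between lines and carry no p. Cdv3 read 0.204 ± 0.0397 (SD, n = 6) in the control line and 0.00619 ± 0.00444 (SD, n = 5) in the experimental line, with 0.0245 at experimental day 0. Gm51701 read 0.749 and 0.0352. The other 3 kept methylation in the experimental line, with means of 0.356 for LOC115486434, 0.253 for Sema6b, a semaphorin, and 0.312 for Gga3, a trans-Golgi adaptor.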

How the data were processed

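The authors aligned RRBS reads to mm10 with Bismark and deposited, per library, the percent of methylated calls at each CpG cytosine (Bismark versions and the restriction enzyme are not given in the sources used here). No read counts were used, so depth per cytosine is unknown and no coverage minimum was set. Percent was divided by 100 to give beta. Promoters ran from 1500 bp before to 500 bp after RefSeq GRCm38.p6 starts. A promoter's beta was the mean of at least 3 cytosines listed in all 12 libraries and not constant. The strand of each cytosine came from the RefSeq promoter joined to exon 1 of the GENCODE M1 transcript by an overlap of 88 identical bases, and all 51 cytosines listed in this stretch fell on CpG cytosines.

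M-values with an offset of 0.01 were tested with limma 3.58.1 in R 4.3.3, with Benjamini-Hochberg adjustment over all promoters or all 508351 cytosines and a threshold of 0.05. The step was tested on simulated data. Near copies were sought with BLAST 2.17.0 (at least 70 aligned bases and 90% identity). Other steps used Python 3.11.15. The cytosines named were those with the highest and lowest control means and at the ends of the methylated stretch. ISWI and other SNF2-family genes, fibroblast and epithelial markers, genes within 500 kb and the 5 most similar promoters were also named. The members and lists were chosen with earlier results of these data known. Alternatives were another offset, beta values, other windows and minimums, averaged strands, a block by day and each library left out. X, Y and mitochondrial cytosines were not used.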

Additional observations from a re-analysis of the deposited data

Results flagged for a closer look

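Of 38 groups of values with any variation (the promoter and each window cytosine in each line), 17 held a library whose gap to the nearest of the others passed Dixon's 95% critical value. Chance flags about 1 in 20 groups, and in groups that are at 0 in all but 1 library the largest value is flagged whatever its size. In the control line, 3 cytosines outside the partly methylated set were flagged, 80738975 at day 0 with 0.0833, 80739142 at day 0 with 0.0667 and 80739070 at day 16 with 0.0179, each with the other control libraries at 0.

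In the experimental line, the largest flagged value was 0.333 at 80739462 on day 20, 3 bases before the start. There the other experimental days reached 0.08 at most and the control line ran from 0.485 to 0.642. In the same library, 80739505 and 80739512 of the same fragment were at 0. The depth behind the 0.333 is unknown, so this single value is uncertain. The other flagged values beside that of 80739462 were small. They were 0.0417 at 80739512 and 0.167 at 80739117 on day 9, and 0.0455 at 80739135 on day 12, cytosines that are partly methylated in the control line.

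Experimental day 12 was flagged at 80739021, 80739034, 80739051, 80739064 and 80739070, each with 0.2. With 80739049, these 6 plus-strand cytosines from 80739021 to 80739070 all read 0.2 in that library. Elsewhere they read at most 0.0909, and at most 0.0179 in the control line. They lie in the first fragment that reaches into the coding sequence, share reads and amount to 1 observation. The remaining flagged values were 0.0476 at 80739171 on day 12, 0.182 at 80738643 and 0.0769 at 80738916 on day 16, 0.069 at 80738995 on day 5 and 0.111 at 80739019 on day 9. Experimental day 0, which was not in these groups, read 0.0769 at 80739171, 0.1 at 80738916 and 0.0476 at 80738995. At 80739171 and 80738916 the flagged value was thus not the highest of the line.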

How the results depend on the processing

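The control level, 0.385 with the main choice of cytosines, was 0.203 over all cytosines listed in a library. The experimental level, 0.0123, was 0 as a median over cytosines and 0.0353 over the 3 cytosines of the start fragment, a choice added after seeing the data. Without each library in turn, the control slope ran from -0.0314 (without day 0) to 0.0387, and turned negative also without day 9 (-0.00201) and day 12 (-0.00806), always within its error. The experimental slope, 0.0436, ran from 0.00898 (without day 20) to 0.0634 with 1 library left out and was 0.016 with an offset of 0.05. The slope difference, 0.0433, ran from 0.00484 (without control day 20) to 0.075 (without control day 0), and was 0.0087 without experimental day 20 and 0.0157 with that offset. The day 0 difference, -0.731, was -0.243 with that offset. The promoters called between lines numbered 452 with an offset of 0.05, 410 on beta values and 20 with the day as a block, against 246. With 1 library left out they ran from 114 to 252, and were fewest without experimental day 12 (114) or day 5 (123) and control day 20 (148) or day 16 (155). The cytosines called numbered 5275, 5954 and 0 under the same 3 settings, against 3124. Of the 18 Smarca5 cytosines tested, 11 were called on this contrast, which chose the gene, and 0 with the day as a block, and 7 without experimental day 5, 12 or 16 or control day 16. The other 51 values outside the left-out libraries changed less. Slopes and the day 0 difference kept their direction and side of the threshold, and levels moved by less than the SD. Counts stayed near the main one, such as 279 promoters called with the other promoter window and 224 with averaged strands. Many of the 51 could not move. The Smarca5 estimates under the other window, the higher minimum and averaged strands rest on the same 18 cytosines and were unchanged. The labels give no replicate number, so the block pairs libraries by day only. The block fit also leaves out control day 0, since the contrast holds no experimental day 0 library. Unknown depth, 1 line per genotype, near copies on chromosome 4 and the missing minus strand in control day 12 limit what these values show. The cause of each change was not tested.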
